A study of Mus musculus with 59 samples.

Results

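The fibrillar collagens and the enzymes that mature them were followed through a mouse model of myocardial infarction on 59 Affymetrix arrays. The 8 genes were Col1a1, Col1a2, Col3a1, Col5a1, Col5a2, Lox, Loxl1 and Serpinh1. Every probe set that the array annotation assigned to exactly 1 of these genes was taken, which gave 14 of the 10833 probe sets with 1 gene and 8 of their 8251 genes. The tissue was left ventricle, taken from mice with an infarct or sham-operated mice at 6 times: 1 h, 4 h, 24 h and 48 h, then 1 week, then 8 weeks. Infarct tissue was the left ventricle between the left anterior descending (LAD) artery and the apex, and remote tissue was the non-infarcted ventricle above that artery in mice with an infarct. Sham upper tissue was the region above the artery in sham hearts, and sham lower tissue was the region below it. Each of infarct, remote and sham upper had 3 arrays at each of the 6 times, and sham lower had 5 arrays, 1 at each time up to 1 week. The labels give no strain, sex, age or genetic change for any group, and how the infarct was made is not given in the sources used here.

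Types I and III collagen are the main fibril-forming collagens of the heart. Type I is assembled from chains encoded by Col1a1 and Col1a2, type III from Col3a1 chains alone, and type V (Col5a1, Col5a2) starts fibrils and sets their width. Serpinh1 encodes HSP47, the procollagen chaperone of the endoplasmic reticulum, and Lox and Loxl1 encode copper-dependent oxidases that crosslink collagen and elastin outside the cell. In the heart these products come mainly from fibroblasts and myofibroblasts, and they form the scar that replaces dead muscle.

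The regulatory sequence upstream of the transcript start is shown for the genes matched in the RefSeq promoter table, because most of them rose and fell together in the data below. The search of that table (GRCm38.p6) left out the entries on 1 chromosome and matched 4 of the 8 genes. A gene on the chromosome left out could not be matched. Col1a1, Col5a2, Lox and Loxl1 were not matched, which does not show that the table lacks them. Each sequence is the 250 bases before the start, 5′ to 3′ on the gene's strand, at chr6:4505368-4505617 (+) for Col1a2, chr1:45311288-45311537 (+) for Col3a1, chr2:27886175-27886424 (+) for Col5a1 and chr7:99353240-99353489 (-) for Serpinh1. Capitals mark every match, on either strand, to 4 short motifs, and none of the matches overlap. The searched letters were CCAAT for the CCAAT box, which binds the factor NF-Y. For the TATA box of core promoters they were TATAAA. For the GC box, bound by Sp1, they were GGGCGG. For the Smad box, a site of TGF-beta signalling, they were CAGACA.
Col1a2: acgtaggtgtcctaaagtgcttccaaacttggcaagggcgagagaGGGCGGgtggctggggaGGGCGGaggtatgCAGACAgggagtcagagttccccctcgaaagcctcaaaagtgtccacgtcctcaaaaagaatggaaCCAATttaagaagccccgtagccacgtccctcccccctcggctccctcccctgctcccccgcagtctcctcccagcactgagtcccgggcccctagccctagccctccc
Col3a1: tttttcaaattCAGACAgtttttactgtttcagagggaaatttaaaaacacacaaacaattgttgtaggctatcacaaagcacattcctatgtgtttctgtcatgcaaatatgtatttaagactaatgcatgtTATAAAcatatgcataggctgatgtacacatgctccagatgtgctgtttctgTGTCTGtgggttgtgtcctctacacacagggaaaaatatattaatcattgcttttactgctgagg
Col5a1: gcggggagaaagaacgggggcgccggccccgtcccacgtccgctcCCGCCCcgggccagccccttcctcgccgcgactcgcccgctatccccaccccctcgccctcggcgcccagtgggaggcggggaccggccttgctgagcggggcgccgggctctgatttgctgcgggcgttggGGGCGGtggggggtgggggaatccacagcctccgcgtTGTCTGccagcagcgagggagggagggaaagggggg
Serpinh1: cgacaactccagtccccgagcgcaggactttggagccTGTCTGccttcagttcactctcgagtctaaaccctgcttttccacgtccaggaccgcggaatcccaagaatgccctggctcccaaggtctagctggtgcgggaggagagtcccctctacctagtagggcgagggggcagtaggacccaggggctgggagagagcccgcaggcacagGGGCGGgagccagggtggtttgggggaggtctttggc
The Col1a2 window held 1 CCAAT box, 2 GC boxes and 1 Smad box, and the Col3a1 window held 1 TATA box and 2 Smad boxes. The Col5a1 window held 2 GC boxes and 1 Smad box, and the Serpinh1 window held 1 of each of those kinds. Over 32851 promoter windows of the same length, 33.8% held CCAAT, 12.4% TATAAA, 32.7% GGGCGG and 17.1% CAGACA. These windows include the chromosome that the search for the members left out. The Col3a1 window was 35.2% G or C and the Col5a1 window 76.4%, against a median of 52.4%. These are matches of letters only.

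Intensities are in the scanner software's arbitrary units, and log2 changes are differences of log2(intensity + 45.6). A change is called where limma's Benjamini-Hochberg adjusted p over all 8140 tested probe sets was below 0.05. Where 3 intensities are listed, they follow the order of the number in the array titles (lowest, middle, highest), and a number is shared by infarct and remote arrays of a time. The labels do not say what the number stands for, so the p-values measure the spread between these arrays. All 14 probe sets passed the intensity filter of 108.2 on at least 3 arrays, but a Lox probe set (161177_f_at) reached that intensity on 11 of 59 arrays, the other Lox probe set (160095_at) on 23 and a Col3a1 probe set (102990_at) on 37. Array medians lay between 157 and 214, replicate arrays of a group correlated at 0.922 or above, and no arrays held identical values. In whole tissue, fewer cells of a type and less RNA per cell cannot be told apart.

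In the infarct, collagen and crosslinking probe sets showed no call at 1 h, differed from sham for a few members at 4 h and 24 h, rose broadly by 48 h, peaked at 1 week and stayed raised at 8 weeks. Against sham upper, 0 of 14 were called at 1 h by limma, where 0 members and 1644 of 8140 probe sets were below an unadjusted p of 0.05 and 3.5% of all tested probe sets were called higher. At 4 h 2 were higher (background 5.15%) and at 24 h 4 were higher (18.3%), the latter a share near the background. At 48 h 10 were higher (24.6%) and 1 was lower (24.8%). At 1 week 12 were higher (34.1%) and 1 was lower (24.3%), covering all 8 genes. At 8 weeks 9 were higher (11.1%) and 1 was lower (8.88%), covering 6 genes with a higher probe set. The median log2 change of the 14 was 0.76 at 48 h, 3.12 at 1 week and 0.97 at 8 weeks, where the median of all tested probe sets was -0.05, 0.11 and -0.01. At 4 h all infarct arrays stood above all sham arrays for 12 of 14 probe sets, as for 17.3% of all tested ones, with a median log2 change of 0.49 beside -0.01 for all. The sham upper level at 4 h was itself below that at 1 h for several of them, with log2 changes of -0.70 for Col3a1 98331_at, -0.58 for Col1a1 103709_at and -0.57 for Col3a1 161984_f_at, and its part in the 4 h result was not tested. The member called lower at the last 3 times was in each case the Col1a2 probe set 161156_r_at. Under quantile scaling of the arrays the median of all tested probe sets at 1 week moved by -0.19 and the share of calls that were higher went from 58.3% to 47.2%, while 13 members were still called.

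**Figure D1:**
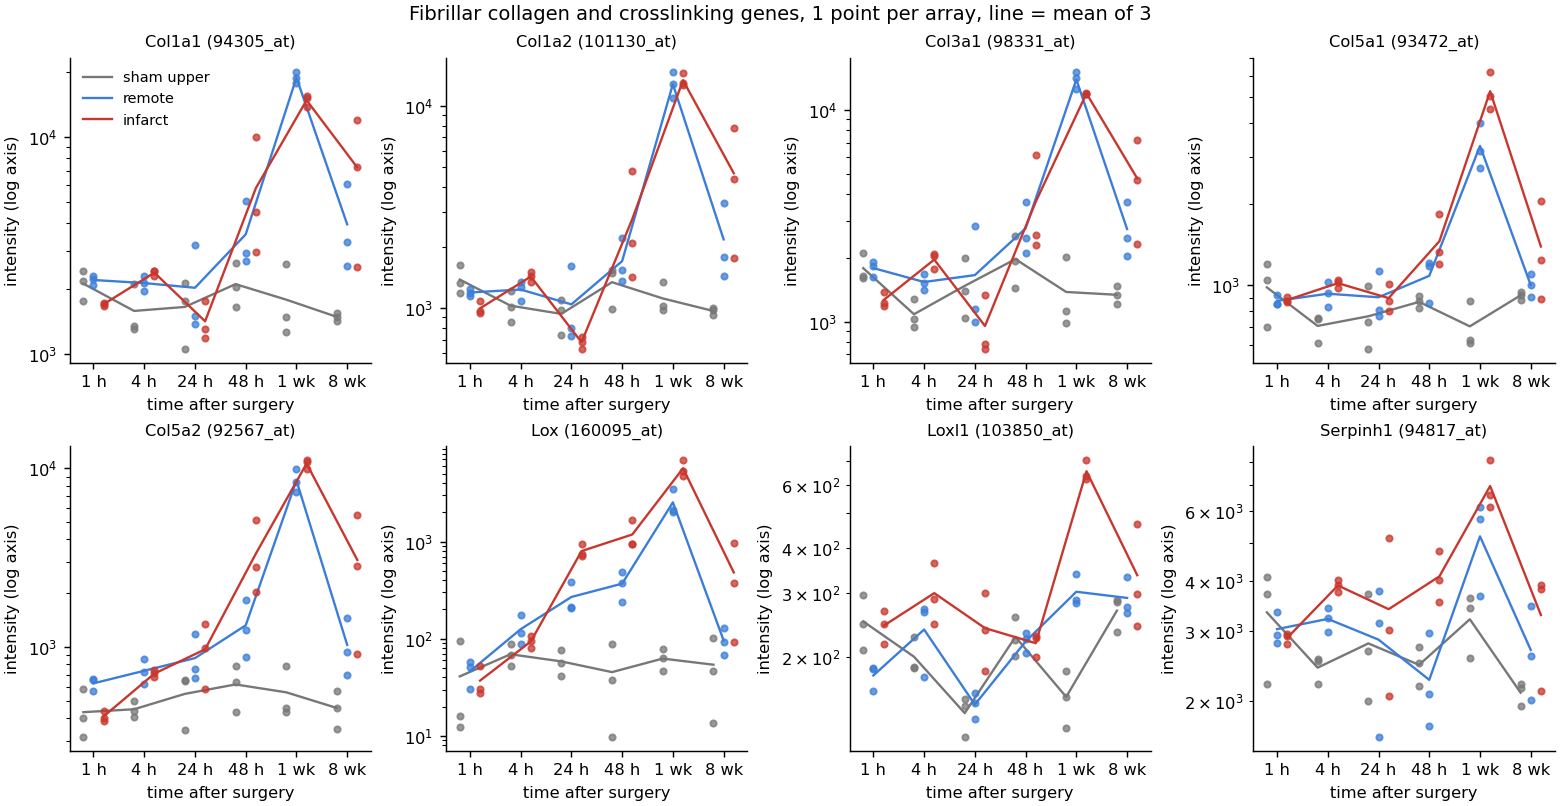
Intensity (log axis) against time after surgery for the probe set with the highest mean of each gene; points are single arrays and lines are means of 3 arrays for sham upper, remote and infarct tissue. In both infarct and remote tissue every fibrillar collagen chain was highest at 1 week; Col1a1 went from 1263 to 2599 in sham upper tissue at that time to 13833 to 15394 in the infarct and 17665 to 19962 in remote tissue.

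Col1a1, the alpha1 chain of type I collagen, was measured by 2 probe sets that rose by different amounts. With 94305_at the sham upper arrays read 1652, 2032 and 2621 at 48 h and the infarct arrays 4495, 10006 and 2949, so the infarct arrays stood above sham and the middle-numbered array far above the others. That change was called at 1.29 ± 0.36 (SE), adjusted p = 0.00317. At 1 week the infarct arrays read 13833, 15394 and 15131 and the sham upper arrays 1263, 1485 and 2599, an 8.5-fold rise with narrow spread (log2 change 3.09 ± 0.36 (SE), adjusted p = 1.34e-09). At 8 weeks the infarct arrays were spread over 2508, 7288 and 11928 against 1486, 1542 and 1424 in sham, and the groups did not overlap (log2 change 1.99 ± 0.36 (SE), adjusted p = 1.81e-04). With 103709_at the corresponding changes were smaller, 0.74 ± 0.19 at 48 h, 1.68 ± 0.19 at 1 week and 0.81 ± 0.19 at 8 weeks. This second Col1a1 probe set was also higher at 4 h, with infarct arrays at 1456, 1497 and 1427 and sham arrays at 925, 954 and 724 (log2 change 0.73 ± 0.19 (SE), adjusted p = 0.00855). It was called at 24 h as well (0.47 ± 0.19 (SE), adjusted p = 0.044), a call lost on leaving out any of 4 of the 6 arrays. Its sham upper mean was 868 at 4 h and 1331 at 1 h, and the 4 h call was lost when the sham upper array with the highest number was left out.

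Col1a2, the alpha2 chain, rose in the infarct by its probe set 101130_at. Sham upper arrays read 978, 1028 and 1348 and infarct arrays 12769, 12994 and 14527 at 1 week, with no overlap (11.7-fold, log2 change 3.54 ± 0.32 (SE), adjusted p = 1.90e-12). At 24 h the infarct arrays had read 723, 629.8 and 683, all below the sham range of that time, and the difference did not pass (-0.39 ± 0.32 (SE), adjusted p = 0.352). At 48 h they read 2113, 4753 and 1427, overlapping sham at 991, 1548 and 1496, and the change was called (0.86 ± 0.32 (SE), adjusted p = 0.0249). The 8-week infarct arrays read 1777, 4359.6 and 7836 and the sham arrays 925, 1002 and 979, so the groups stood apart while the infarct arrays differed widely among themselves (log2 change 1.97 ± 0.32 (SE), adjusted p = 4.08e-05). The other Col1a2 probe set, 161156_r_at, went the other way: infarct arrays read 895, 942 and 804 at 1 week against 1417, 1253 and 1252 in sham (log2 change -0.55 ± 0.17 (SE), adjusted p = 0.00593). The _r_at suffix is Affymetrix's mark for a probe set for which some of its probe selection rules were relaxed. It was lower than sham at 48 h and 8 weeks too (-0.57 ± 0.17 and -0.59 ± 0.17) and higher, with overlap, at 24 h (0.46 ± 0.17 (SE), adjusted p = 0.0279). The 24 h call was lost without the sham array of the lowest number or the infarct array of the middle or the highest number, and the 8-week call without the infarct array of the middle or the highest number.

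Col3a1, the chain of type III collagen, had 3 probe sets that rose at 1 week. By 98331_at the sham upper arrays read 983, 1127 and 2028 and the infarct arrays 11918, 11865 and 12051, the latter almost equal to each other (8.83-fold, log2 change 3.14 ± 0.33 (SE), adjusted p = 6.51e-11). By 161984_f_at, whose suffix marks probes shared within a sequence family, sham read 229, 214 and 294 and infarct 3048, 2877 and 3333 (log2 change 3.43 ± 0.26 (SE), adjusted p = 9.47e-15). By 102990_at sham read 61.5, 36.8 and 179 and infarct 4873, 4538 and 6398, far above sham (log2 change 5.39 ± 0.43 (SE), adjusted p = 4.99e-14). That probe set is dim in sham hearts, with 18 sham upper arrays between 28.1 and 222, so the added 45.6 holds its fold change down. It also separated the groups at 48 h, where infarct arrays read 492, 1247 and 407 and sham arrays 55.3, 103 and 222 (log2 change 2.10 ± 0.43 (SE), adjusted p = 7.31e-05). By 98331_at the 48 h arrays overlapped, 2572, 6146 and 2311 against 1434, 1939 and 2542, with an adjusted p of 0.0469. At 8 weeks the log2 changes were 1.65 ± 0.33, 2.10 ± 0.43 and 0.99 ± 0.26 by 98331_at, 102990_at and 161984_f_at, each with all infarct arrays above all sham arrays.

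The type V chains were also higher in the infarct at 48 h and 1 week. Col5a1 by 93472_at read 627, 609.9 and 874 in sham upper and 4536, 5056 and 6218 in infarct tissue at 1 week (log2 change 2.83 ± 0.20 (SE), adjusted p = 3.43e-15). By 101080_at it read 247, 245 and 393.5 and 3501, 4021 and 4819.6 (log2 change 3.63 ± 0.24 (SE), adjusted p = 7.56e-16), so both Col5a1 probe sets separated the groups. Both had passed at 48 h, at 0.70 ± 0.20 and 0.89 ± 0.24. Col5a2, the alpha2 chain, read 434, 639.6 and 782 in sham and 2792, 5162 and 2039.7 in infarct tissue at 48 h (log2 change 2.27 ± 0.37 (SE), adjusted p = 1.72e-06). It reached 9879, 11133 and 10901 in the infarct at 1 week against 457, 436 and 784 in sham, an 18.2-fold rise (log2 change 4.19 ± 0.37 (SE), adjusted p = 6.54e-13). At 8 weeks Col5a2 was still 5.02-fold above sham (2.33 ± 0.37 (SE), adjusted p = 2.59e-05), while Col5a1 by 93472_at overlapped sham (0.50 ± 0.20 (SE), adjusted p = 0.0742) and by 101080_at was called (0.94 ± 0.24 (SE), adjusted p = 0.00539). The difference between Col5a2 and Col5a1 was not itself tested.

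Serpinh1, the procollagen chaperone, rose at 48 h and 1 week, with a log2 change at 1 week below that of every collagen probe set that rose; that difference was not tested. Infarct arrays read 4035, 4778 and 3542 at 48 h against 2732, 2185 and 2490.3 in sham, without overlap (log2 change 0.72 ± 0.27 (SE), adjusted p = 0.0234). At 1 week they read 6159.7, 6598 and 8071 against 2571, 3432 and 3638 (log2 change 1.11 ± 0.27 (SE), adjusted p = 4.82e-04). At 4 h every infarct array was above every sham array, 3921, 3759.9 and 4039.5 against 2215, 2549 and 2523, and the change did not pass (0.68 ± 0.27 (SE), adjusted p = 0.0996). At 8 weeks the arrays overlapped (0.59 ± 0.27 (SE), adjusted p = 0.117). The 48 h call was lost without the sham array of the middle number or the infarct array of the lowest or the middle number.

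Lox, which encodes lysyl oxidase, was far above sham at 24 h by its probe set 160095_at and not by 161177_f_at. By 160095_at the sham upper arrays read 41.9, 56.8 and 76.9 at 24 h and the infarct arrays 941, 749 and 702, far above every sham array (8.05-fold, log2 change 3.01 ± 0.40 (SE), adjusted p = 8.78e-08). At that time no probe set of Col3a1, Col5a1 or Col5a2 was called, nor were Col1a1 94305_at and Col1a2 101130_at, and Col5a2 was at 0.78 ± 0.37 (SE), adjusted p = 0.0867. Lox then read 944, 1666 and 932 at 48 h and 5329, 4752 and 6885 at 1 week, against 46.3, 63.5 and 77.9 in sham at 1 week (log2 change 5.71 ± 0.40 (SE), adjusted p = 2.14e-15). All 18 sham upper arrays lay between 9.8 and 102, below the filter intensity, so the size of the fold rests on the added 45.6. At 8 weeks the infarct arrays read 91.9, 375 and 976 and overlapped sham, which reached 102 (log2 change 2.07 ± 0.40 (SE), adjusted p = 3.54e-04). The dim probe set 161177_f_at read 126, 141 and 154 in the infarct and 77.4, 73.6 and 61.8 in sham at 1 week and was not called (0.67 ± 0.30 (SE), adjusted p = 0.0502). Its log2 changes were 0.16 at 24 h and -0.20 at 48 h, neither called. By limma on the difference of both probe sets, the 160095_at change was larger by 2.85 at 24 h (adjusted p = 6.44e-05) and by 3.99 at 48 h (adjusted p = 9.08e-08).

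Loxl1, lysyl oxidase-like 1, was called higher at 4 h, 24 h and 1 week. Infarct arrays read 365, 246 and 289.6 at 4 h against 226, 188 and 186 in sham (log2 change 0.48 ± 0.16 (SE), adjusted p = 0.0448), and 183, 237 and 301 at 24 h against 120.0, 153 and 146 (log2 change 0.61 ± 0.16 (SE), adjusted p = 0.00229). At 48 h they read 200.3, 226 and 228 and sham 258, 201 and 222, with a change of -0.04 ± 0.16 (SE), adjusted p = 0.838. The step from 24 h to 48 h, -0.65 ± 0.23 (SE), was not called (adjusted p = 0.0593). At 1 week the infarct arrays, 636, 623 and 702, stood 3.51-fold above sham at 127, 183 and 154 (log2 change 1.81 ± 0.16 (SE), adjusted p = 1.14e-12). Its sham upper level itself differed between times (adjusted p = 0.00219, F test), with group means of 251 at 1 h, 140 at 24 h, 227 at 48 h, 155 at 1 week and 269 at 8 weeks, so the control was lowest at 24 h and 1 week. The 4 h call was lost when the sham array with the middle or highest number, or the infarct array with the lowest or highest number, was left out.

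**Figure D2:**
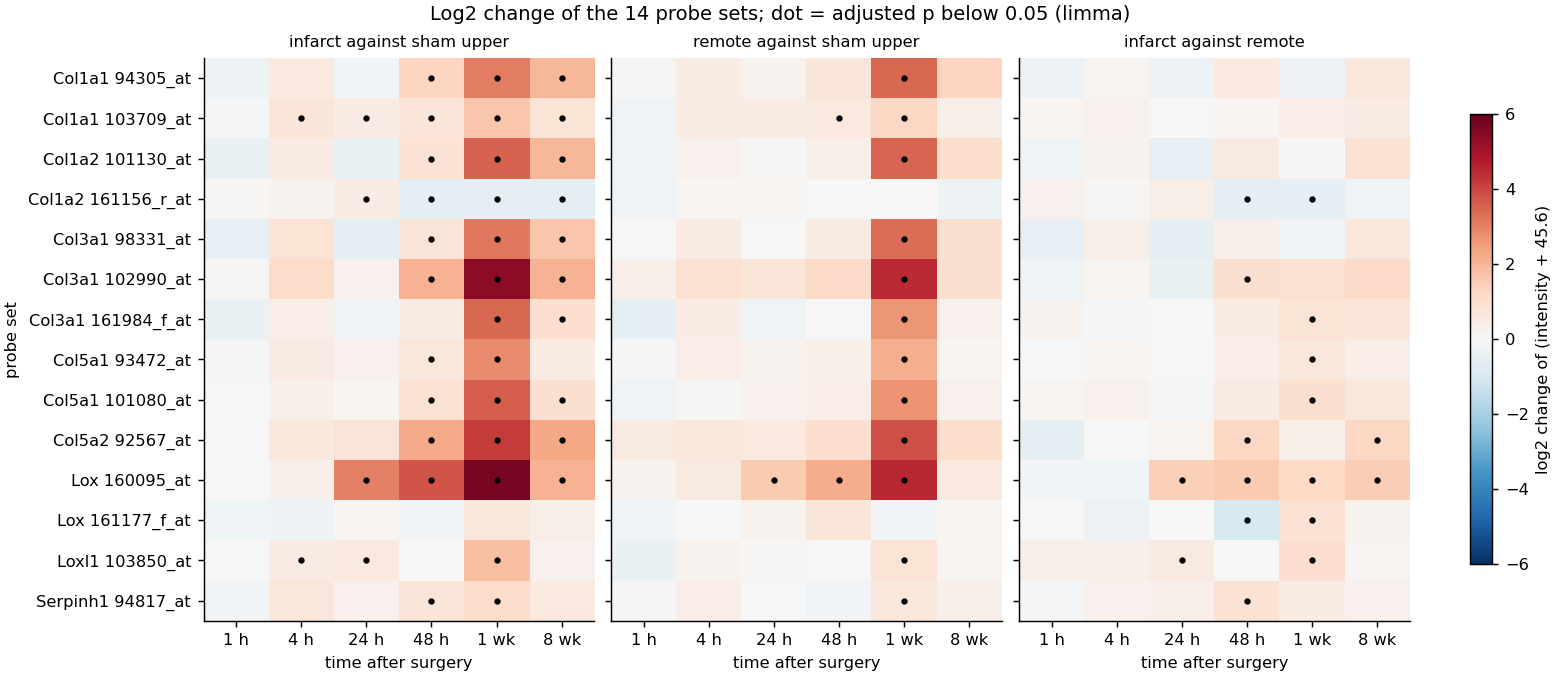
Log2 change of (intensity + 45.6) for the 14 probe sets (rows) at 6 times (columns) in infarct against sham upper, remote against sham upper and infarct against remote tissue, with red for higher and blue for lower and a dot where the adjusted p was below 0.05. The column for 1 week holds 13 dots in the infarct panel and 12 in the remote panel, and the remote panel has none at 8 weeks.

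The size of the infarct effect (infarct minus sham upper) differed between the 6 times for 12 of 14 probe sets by a moderated F test, against 62.6% of all tested probe sets; Lox 161177_f_at and Serpinh1 did not pass. Between 4 h and 24 h Lox 160095_at rose by 2.72 on the log2 scale (background 7.99% higher). Over the same step the Col3a1 probe set 98331_at fell by 1.40 (7.64% lower), from infarct arrays above sham at 4 h (2086, 2038 and 1762 against 1029, 1281 and 939.5) to 1329.9, 786 and 744 against 1394, 1994 and 1035 at 24 h. Between 24 h and 48 h Col3a1 102990_at rose by 1.82 (5.12%; adjusted p = 0.0498) and Col1a2 161156_r_at fell by 1.04 (3.82%). These 2 calls were 1 under a smaller offset, quantile scaling or no filter and 4 under a larger offset. Leaving out single arrays gave 0 without the infarct array of 24 h with the highest number and up to 6 without the infarct array of 24 h with the lowest or of 48 h with the highest number. The other single arrays left out gave 1, 4 or 5. The step from 48 h to 1 week carried the rise of the group, with 11 of 14 higher (14.2%), between 0.94 for Col1a1 103709_at and 3.29 for Col3a1 102990_at. From 1 week to 8 weeks 10 of 14 fell (19.8%). The effect fell by 0.86 for Col1a1 103709_at and fell by 3.65 for Lox 160095_at. Col1a1 94305_at changed by -1.10 over that step, which did not pass (adjusted p = 0.0955). These steps share the sham arrays of the 2 times they join, and steps next to each other share arrays.

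The remote myocardium, which had no infarct by its label, had a raised probe set for every member gene at 1 week and none called at 8 weeks. Against sham upper, limma called 0 of 14 at 1 h (5.01% of all higher; 2 members and 1920 of 8140 probe sets at an unadjusted p below 0.05), 0 at 4 h (1.29%; 2 and 980 unadjusted), 1 at 24 h (2.59%) and 2 at 48 h (4.14%). At 1 week 12 of 14 were higher, against 19.6% of all, and at 8 weeks 0 were called, against 0.086% (5 members and 8.13% of all tested probe sets at an unadjusted p below 0.05). At 8 weeks all remote arrays stood above all sham arrays for 7 of 14 and for 9.45% of all tested probe sets. The infarct and remote comparisons share their sham arrays. The median log2 change of the 14 at 1 week was 2.66, where that of all tested probe sets was 0.06. All 8 genes had a probe set higher at 1 week, and the 2 not called were Col1a2 161156_r_at and Lox 161177_f_at.

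In remote tissue at 1 week all arrays stood above sham for Col1a1 94305_at, Col1a2 101130_at and Col3a1 98331_at, while Col1a2 161156_r_at, at 1654, 1368 and 925, overlapped sham. Col1a1 94305_at read 17665, 19962 and 18720.0, a 10.8-fold rise over sham (log2 change 3.43 ± 0.36 (SE), adjusted p = 1.87e-09). Col1a2 101130_at read 10945, 12845 and 14771 (log2 change 3.47 ± 0.32 (SE), adjusted p = 9.56e-11). Col3a1 98331_at read 12492, 15086 and 14089 (log2 change 3.36 ± 0.33 (SE), adjusted p = 2.76e-10). The remote arrays stood above the infarct arrays for Col1a1 94305_at and Col3a1 98331_at and overlapped them for Col1a2 101130_at. Col5a2 read 7376, 8407 and 9880.1 (log2 change 3.87 ± 0.37 (SE), adjusted p = 1.29e-10), and the Col5a1 changes were 2.16 ± 0.20 and 2.69 ± 0.24. Loxl1 changed by 0.80 ± 0.16 and Serpinh1 by 0.66 ± 0.27 (SE), adjusted p = 0.0495; the Serpinh1 call was lost on leaving out any of 5 of the 6 arrays.

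Lox was called in remote tissue at 24 h, 48 h and 1 week by 160095_at, the probe set of the Lox values in this paragraph. Its remote arrays read 214, 384 and 209 at 24 h, all above the 24 h sham arrays at 41.9, 56.8 and 76.9 (log2 change 1.56 ± 0.40 (SE), adjusted p = 0.0146), and 378, 491 and 238 at 48 h (log2 change 2.23 ± 0.40 (SE), adjusted p = 2.68e-04). The 24 h call was lost when the sham array with the lowest or middle number or the remote array with the middle number was left out. At 1 week the remote arrays read 1994, 2131 and 3455 (log2 change 4.54 ± 0.40 (SE), adjusted p = 4.24e-11), and at 8 weeks 92.1, 67.7 and 129, overlapping sham. The other remote call at 48 h was Col1a1 103709_at, with remote arrays at 1489, 1897 and 2024 and sham arrays at 1002, 1059 and 1459 (log2 change 0.61 ± 0.19 (SE), adjusted p = 0.0397). It was lost on leaving out any of 4 of the 6 arrays. The remote effect differed between times for 11 of 14 probe sets by the F test (25.4% of all). It rose from 48 h to 1 week for 10 (8.01%) and fell from 1 week to 8 weeks for 11 (8.14%). Over that step it fell by 0.70 for Loxl1 and fell by 3.95 for Lox 160095_at.

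Set directly against remote tissue, the infarct was higher in Lox 160095_at and Loxl1 at 24 h and 1 week and in both Col5a1 probe sets at 1 week. No Col1a1 or Col1a2 probe set was called higher in this model at any time. Limma called 0 of 14 at 1 h (2.81% of all higher; 1 member and 1562 of 8140 probe sets at an unadjusted p below 0.05) and 0 at 4 h (0.627%; 0 and 1061 unadjusted). At 24 h Lox 160095_at (1.45 ± 0.38 (SE), adjusted p = 0.0032) and Loxl1 (0.53 ± 0.15 (SE), adjusted p = 0.00698) were higher in the infarct, 2 of 14 against 15.1%. At 48 h 4 were higher (23.6%), namely Lox 160095_at (1.56 ± 0.37), Col5a2 (1.26 ± 0.34), Col3a1 102990_at (0.97 ± 0.40) and Serpinh1 (0.87 ± 0.25). The 2 lower ones (22.5%) were Col1a2 161156_r_at (-0.57 ± 0.16) and Lox 161177_f_at (-0.93 ± 0.28), the latter with remote arrays at 103, 58.9 and 296, of which only the highest-numbered passed the filter intensity. The shares at 24 h and 48 h are near or below the background. The Loxl1 call at 24 h was lost without the infarct array of the highest number, and at 48 h the calls for Col3a1 102990_at and both lower probe sets were lost without the remote array of the highest number. The Col3a1 102990_at call was also lost without the infarct array of the middle number or the remote array of the lowest number.

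At 1 week 6 of 14 were higher in infarct than in remote tissue (22.2%) and 1, Col1a2 161156_r_at, was lower (16.9%). The higher ones were Loxl1 (1.01 ± 0.15 (SE), adjusted p = 8.89e-07), Lox 160095_at (1.17 ± 0.37 (SE), adjusted p = 0.0108), Lox 161177_f_at (0.84 ± 0.28), Col5a1 101080_at (0.94 ± 0.23 (SE), adjusted p = 8.56e-04), Col5a1 93472_at (0.67 ± 0.19) and Col3a1 161984_f_at (0.80 ± 0.24). Loxl1 remote arrays read 282, 288 and 338.8, all below the infarct arrays at 636, 623 and 702. Col1a1 94305_at pointed the other way, with all infarct arrays below all remote arrays, and did not pass (-0.34 ± 0.34 (SE), adjusted p = 0.451). Col1a2 101130_at differed by 0.07 ± 0.30 (SE), adjusted p = 0.878. A p that misses the threshold does not show equal levels. Without the infarct array of the highest number both Lox calls at 1 week were lost, 160095_at also without the remote array of the lowest number and 161177_f_at also without that of the middle number. The Col1a2 161156_r_at call, with overlapping arrays, was lost without the remote array of the lowest number. Under quantile scaling 10 of 14 were called. Arrays of the same number deviated together at 1 week, and with the number as a fixed block 9 of 14 were higher (21.5% of all) and 1 lower (16.3%). That fit added Col3a1 102990_at (0.91 ± 0.25 (SE), adjusted p = 0.00999), Serpinh1 (0.44 ± 0.13 (SE), adjusted p = 0.0127) and Col1a1 103709_at (0.42 ± 0.15 (SE), adjusted p = 0.0327) and lost none of the 7 calls.

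At 8 weeks 2 of 14 were higher in the infarct than in remote tissue (3.44%), Lox 160095_at (1.48 ± 0.37 (SE), adjusted p = 0.0175) and Col5a2 (1.27 ± 0.34 (SE), adjusted p = 0.0216). Their arrays overlapped, since the infarct array with the lowest number read near its remote partner: 92.1 in remote and 91.9 in infarct tissue for Lox, 941 and 917 for Col5a2. The Col1a1 94305_at remote arrays read 3292, 2552 and 6048 beside infarct arrays at 2508, 7288 and 11928, so the highest-numbered array was the highest in both regions. Leaving out that lowest-numbered infarct array raised the count from 2 to 10, and leaving out the infarct array of the middle or the highest number brought it to 0, as did leaving out the remote array of the middle number. These swings were not particular to the members. Of all tested probe sets, 280 were called higher and 177 lower with every array in the fit. Without the infarct array of the lowest, middle or highest number, 1277, 289 and 12 were called in either direction. Without the remote array of the middle number 46 were called. With an offset of 1 times the median intensity 6 of 14 were called, a count given here without its background.

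**Figure D3:**
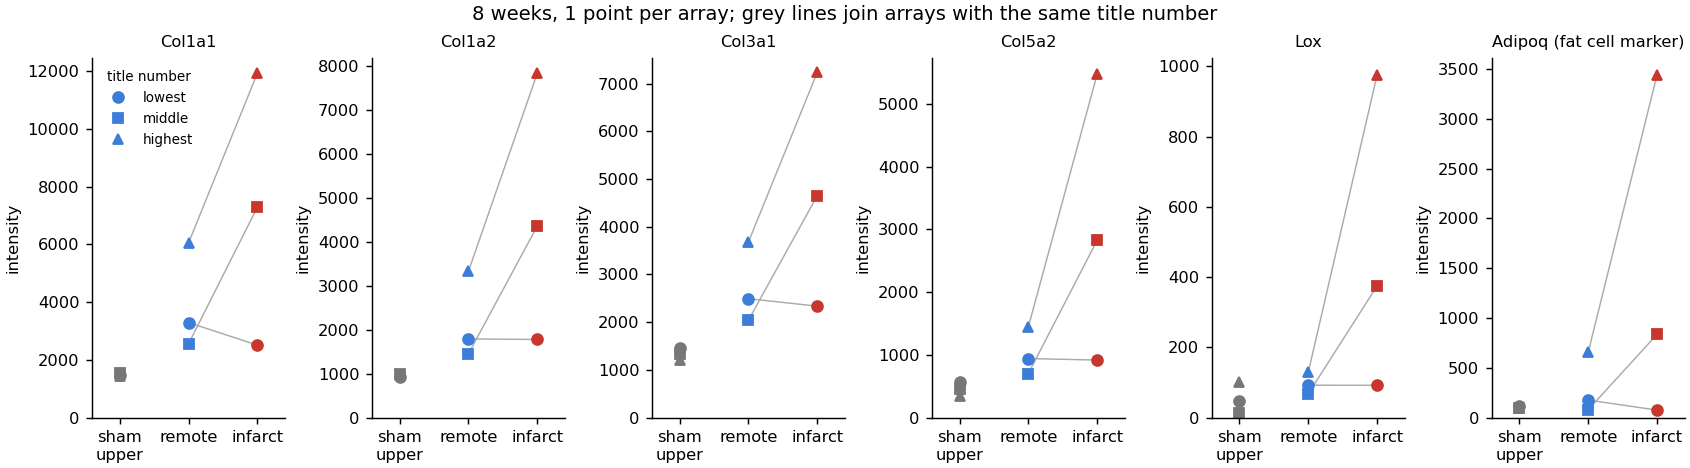
Intensity (linear axis from 0) at 8 weeks in sham upper, remote and infarct tissue for Col1a1, Col1a2, Col3a1, Col5a2 and Lox (probe set with the highest mean) and for Adipoq; symbols give the rank of the title number and grey lines join remote and infarct arrays of the same number. In each panel of a member gene the infarct array with the lowest number lies at or just below its remote partner, and the infarct array with the highest number is the highest for each of these genes and for Adipoq, at 3442.

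The 8-week infarct arrays also differed in fat cell genes. Adipoq, a hormone made by fat cells, read 74.9, 836 and 3442 in the infarct, 176, 79.2 and 656 in remote tissue and 114, 93.9 and 100.2 in sham. Of 4 tested genes of the fat cell list 3 were higher in the infarct at 8 weeks, and the summed intensity of its 5 genes on the array was 708 to 7875 in the infarct and 748 to 810.3 in sham. The order of the infarct arrays was the same for Adipoq and for Col1a1 94305_at, Col1a2 101130_at, Col3a1 98331_at, Col5a2 and Lox 160095_at. In the infarct at 8 weeks 11.1% of all tested probe sets were called higher and 8.88% lower, the background of the fat cell count and of the marker counts below. Of 11 macrophage markers 8 were higher, with sums of 8242, 15998 and 16544 in the infarct and 6279.6 to 6686 in sham. Of 7 myofibroblast and smooth muscle markers 3 were higher, with sums of 8005, 12980.4 and 18188 against 4563 to 5184. Of 13 fibroblast markers 6 were higher, with sums of 36362, 40431 and 50631 against 28804 to 33450.2. Of 11 cardiomyocyte markers 1 was lower, a share near the background, and the sums were 186694, 164254 and 126504 against 218102 to 224020.0. Of 8 endothelial markers 0 were called. In the fat cell, macrophage, myofibroblast, fibroblast and cardiomyocyte lists the infarct sums were farthest from sham on the array with the highest number. Sums of B cell and plasma cell markers (868, 2503 and 1677) and of neutrophil markers (719, 1159 and 726) were highest on the infarct array with the middle number. The part of these cells and of fat tissue in the 8-week result was not tested. Without the infarct array of the highest number, 7 of 14 members were called against sham at 8 weeks. The calls lost were Col5a1 101080_at, Col3a1 161984_f_at and Col1a2 161156_r_at. Calls over all tested probe sets fell too, from 900 higher and 723 lower to 703 in either direction. A fit of only the 6 sham upper and infarct arrays of 8 weeks called 0 of 14, a count given here without its background.

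At 48 h the array with the middle number was the highest for most collagens in both regions. For Col3a1 98331_at it read 6146 in the infarct, where the other arrays read 2572 and 2311, and 3671 in remote tissue, where the others read 2481 and 2108. Without that infarct array the 48 h count against sham went from 11 to 7, and Col1a1 94305_at, Col1a2 101130_at, Col3a1 98331_at and Serpinh1 were no longer called. The Col3a1 98331_at call was also lost without the sham array of the lowest or the middle number, and the Col1a2 101130_at call without that of the lowest number. Against the lone sham lower array of 48 h, which is assumed to vary like the other groups, 5 of 14 were called, near the 33.5% of all tested probe sets. At 24 h the remote array with the highest number stood above the others for Col1a1 94305_at (1507, 1370.2 and 3189), Col1a2 101130_at (726, 796 and 1613) and Col3a1 98331_at (1149, 995 and 2828). It has no infarct array of the same number, and its macrophage and neutrophil marker sums, 12622 and 4438, were also the highest of the 3; their part in these values was not tested.

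Probe sets of the same gene gave different sizes of change. At 1 week the infarct change differed between probe sets in 6 of 7 member pairs, against 39.6% of 1742 pairs of probe sets of 1 gene over the whole array. For Col1a1 the 94305_at change exceeded that of 103709_at by 1.41 ± 0.27 (SE), adjusted p = 7.64e-05. For Col3a1 the 98331_at change was below that of 102990_at, a difference of -2.25 ± 0.23 (SE), adjusted p = 2.99e-10. The pair 98331_at and 161984_f_at differed by -0.29 ± 0.22 (SE), adjusted p = 0.302. The Col1a2 probe sets, with opposite signs, differed by 4.09 ± 0.42 (SE), adjusted p = 4.31e-10, the Lox probe sets by 5.04 ± 0.49 (SE), adjusted p = 1.57e-10 and the Col5a1 probe sets by -0.79 ± 0.17 (SE), adjusted p = 3.63e-04. Over all 1742 pairs the median absolute difference was 0.45 and the 90th percentile 1.32, so the Col1a1 difference lay just above that percentile and the Col1a2, Lox and larger Col3a1 differences well above it. With an offset of 1 times the median intensity, the Col3a1 difference between 98331_at and 102990_at went to -1.31. At 8 weeks 4 of 7 pairs differed (9.18% of all pairs): Col1a1 by 1.18 ± 0.27 (SE), adjusted p = 0.00512, Col1a2 by 2.57 ± 0.42 (SE), adjusted p = 2.68e-04, Lox by 1.73 ± 0.49 (SE), adjusted p = 0.0197 and Col3a1 102990_at from 161984_f_at by 1.11 ± 0.30 (SE), adjusted p = 0.0138.

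**Figure D4:**
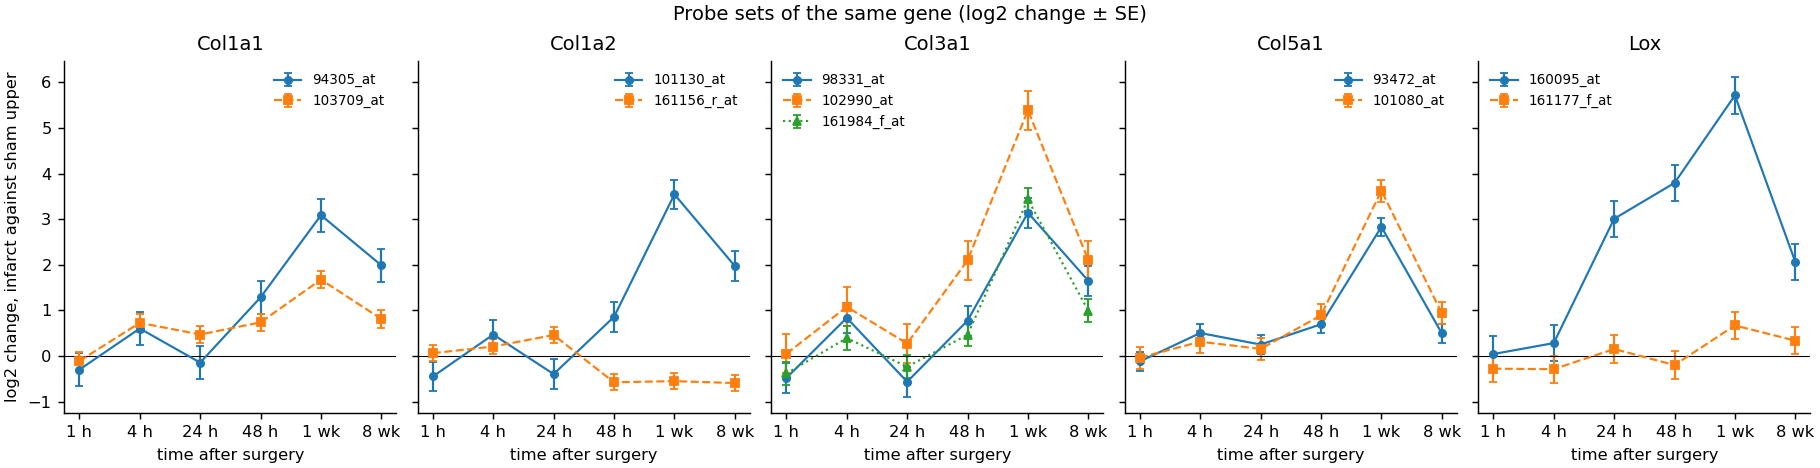
Log2 change of infarct against sham upper (y axis) over time after surgery (x axis) for the probe sets of Col1a1, Col1a2, Col3a1, Col5a1 and Lox; error bars are the standard error of the fit. At 1 week the Col1a2 probe sets lie at 3.54 and -0.55 and the Lox probe sets at 5.71 and 0.67, while the Col5a1 probe sets lie at 2.83 and 3.63.

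Sham upper tissue was compared over time as well. Over the 6 times 2 of 14 probe sets differed by the F test, Loxl1 and Col1a2 161156_r_at (adjusted p = 0.00336), against 19.6% of all, a share near the background. Against 1 h, sham levels moved by up to -0.70 on the log2 scale (Col3a1 98331_at at 4 h), with -0.67 for Loxl1 at 24 h, -0.66 for Col1a2 161156_r_at at 1 week and -0.61 for Serpinh1 at 8 weeks. Infarct tissue came from below the artery and the main control from above it, so position was compared in 5 pairs of sham arrays of the same number. Limma called 0 of 14 (0% of all), with 4 members and 1129 of 8140 probe sets at an unadjusted p below 0.05. Those 4 were higher in the lower region: Loxl1 by 0.35 (5 of 5 pairs, adjusted p = 0.27), Col3a1 102990_at by 0.42 (4 of 5), Col5a2 by 0.33 (5 of 5) and Col5a1 101080_at by 0.23 (5 of 5). The lone sham lower array of 1 week read 3270 for Col1a1 94305_at, above the 3 sham upper arrays and far below every infarct array. Against it 13 of 14 members were called in the infarct at 1 week, where 42% of all were, and 9 of 14 in remote tissue, where 20.1% were.

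Other genes of collagen production also rose at 1 week, as counted over lists of related genes with 1 probe set each. For procollagen modification, folding and secretion, 15 of 16 tested genes rose in the infarct at 1 week, 10 in remote tissue at 1 week and 5 in the infarct at 8 weeks. The shares of all tested probe sets called higher were 34.1%, 19.6% and 11.1% in these comparisons, and they are the background of the list counts below too. Crtap, a subunit of the prolyl 3-hydroxylase complex, changed by 1.69 ± 0.16 (SE) on the log2 scale, the collagen prolyl hydroxylase family gene P3h3 by 2.01 ± 0.22, the disulfide isomerase Pdia3 by 1.77 ± 0.19 and the prolyl isomerase Fkbp7 by 1.36 ± 0.14. At 24 h the chaperone Hspa5 (0.77 ± 0.15) and the transcription factor Creb3l1 (0.53 ± 0.12) were already higher. The 24 h genes named for these lists are those with the smallest adjusted p-values, and 18.3% of all tested probe sets were called higher then. Of 4 tested genes of propeptide cleavage and other crosslinking steps, 3 rose at 1 week in both regions: the procollagen C-proteinase Bmp1 (2.19 ± 0.22), its enhancer Pcolce (1.18 ± 0.21) and the copper transporter Atp7a (1.07 ± 0.20). In remote tissue their changes were 1.65 ± 0.22 (SE), adjusted p = 1.75e-07, 1.12 ± 0.21 (SE), adjusted p = 5.96e-05 and 0.77 ± 0.20 (SE), adjusted p = 0.00178. The other fibrillar chains tested were Col2a1 and Col11a1, of which Col11a1, a minor fibrillar chain, went from a sham mean of 41.9 ± 29.2 to an infarct mean of 2489 ± 1197 (SD, n = 3) at 1 week (log2 change 4.82 ± 0.41).

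Fibril-associated collagens and fibril regulators gave 16 of 21 higher and 2 lower in the infarct at 1 week, 16 higher in remote tissue at 1 week and 16 higher in the infarct at 8 weeks. The matricellular genes Postn (4.41 ± 0.28) and Tnc (5.40 ± 0.35), the fibril-associated collagen Col14a1 (3.64 ± 0.27) and fibulin 2, Fbln2 (1.94 ± 0.15), had the smallest adjusted p-values. At 24 h, when Lox was up and the fibrillar chains largely were not, Tnc (2.62 ± 0.35) and Ccn2, connective tissue growth factor (1.77 ± 0.26), were higher. Collagen breakdown and uptake genes rose in 9 of 11 cases in the infarct at 1 week, 8 in remote tissue and 7 in the infarct at 8 weeks. They included cathepsin K, Ctsk (2.80 ± 0.21), the membrane collagenase Mmp14 (2.79 ± 0.21), the lysosomal protease Ctsb (0.90 ± 0.10) and the metalloproteinase inhibitor Timp1 (4.30 ± 0.36), and Timp1 was higher at 24 h too (3.31 ± 0.36), as was the neutrophil collagenase Mmp8 (1.90 ± 0.25). In TGF-beta signalling, a main inducer of collagen genes, 9 of 13 rose at 1 week in the infarct and 8 rose and 1 fell in remote tissue. Tgfbi (3.26 ± 0.26), the latent TGF-beta binding protein Ltbp2 (3.80 ± 0.33), the ligand Tgfb2 (1.58 ± 0.22) and the corepressor Ski (0.85 ± 0.12) had the smallest adjusted p-values at 1 week, and Tgfbi (1.79 ± 0.26) and the corepressor Skil (1.39 ± 0.25) at 24 h. All of the infarct changes named for these lists had adjusted p-values of 6.03e-04 or below. At 1 week the list medians in the infarct were 1.18 for procollagen modification, 1.12 for propeptide cleavage, 1.86 for fibril regulators, 1.91 for breakdown and 0.85 for TGF-beta signalling, beside 0.11 for all tested probe sets.

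**Figure D5:**
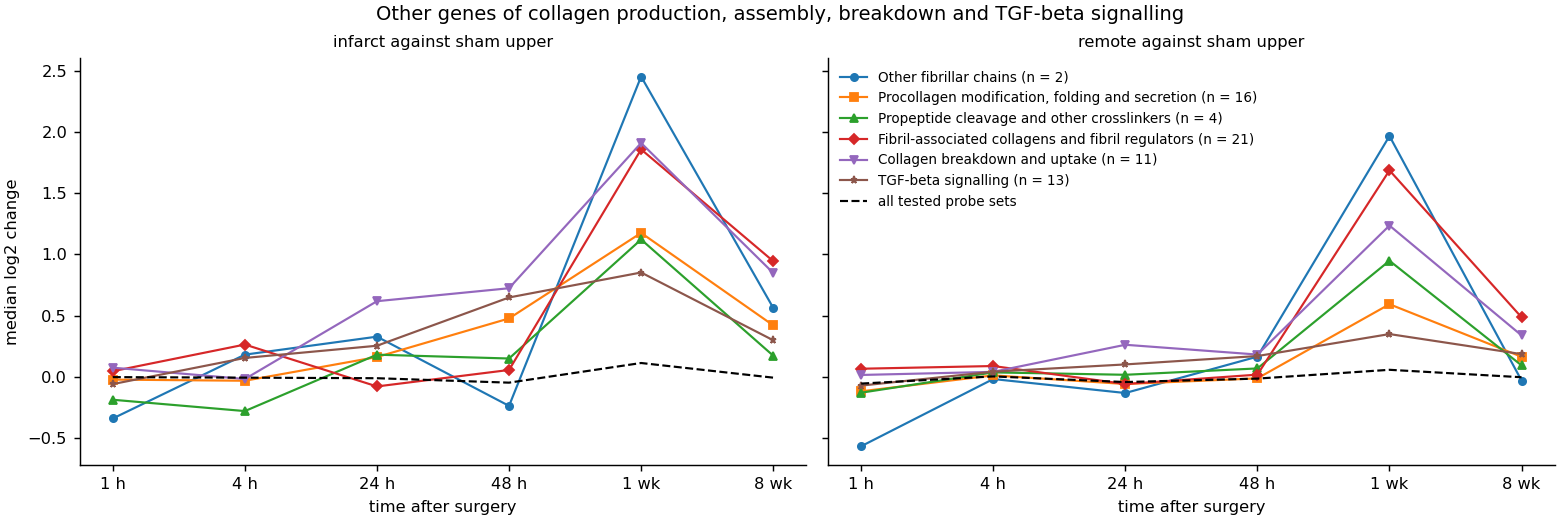
Median log2 change over the tested genes of 6 lists against time after surgery, in infarct (left) and remote (right) tissue against sham upper; the dashed line is the median of all tested probe sets. All lists are highest at 1 week in both panels, and the medians for fibril regulators fall to 0.95 in the infarct and 0.49 in remote tissue at 8 weeks.

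Cell type markers also changed at 1 week, some upward and some downward. As background, 34.1% of all tested probe sets were called higher and 24.3% lower in the infarct at 1 week. In remote tissue at 1 week 19.6% were called higher and 16.1% lower. In the infarct at 1 week all 11 tested cardiomyocyte markers fell, with summed intensity of 22508 to 77031 against 199824 to 226803 in sham, and Myh6, the main adult myosin heavy chain, read 8651, 7877 and 580.4. All 11 macrophage markers rose, to sums of 38078 to 44165 against 5872 to 7906. Fibroblast markers gave 9 higher and 2 lower of 13, with sums of 34972 to 40436 against 30076 to 33043, and the fibroblast receptor Pdgfra read 1699, 1481 and 2301 against 1631, 1916 and 1077, with overlap. Myofibroblast and smooth muscle markers rose in 4 of 7 cases, and Acta2, smooth muscle actin, read 5805, 5992 and 7723 against 1991, 1714 and 2124. In remote tissue at 1 week 2 of 11 cardiomyocyte markers were lower, near the 16.1% of all tested probe sets lower there, and 11 of 11 macrophage markers higher, with macrophage sums of 21011 to 31491; Cd68 read 1183, 1239 and 1754 there, 3601, 3574 and 3623 in the infarct and 234, 266 and 356 in sham. Fibroblast markers in remote tissue at 1 week gave 7 higher and 1 lower of 13, with sums of 33901 to 38895. Myofibroblast and smooth muscle markers rose there in 4 of 7 cases, with sums of 17873 to 23065 against 4972 to 5889 in sham. Of 8 endothelial markers 5 were lower in the infarct (24.3% of all tested probe sets) and 3 in remote tissue (16.1%) at 1 week. The infarct array with the highest number at 1 week had the lowest cardiomyocyte sum and the highest Adipoq of its group, at 1571, and without it 13 of 14 members were called against sham. The pathway and marker lists share Dcn, Lum, Dpt, Postn, Mmp8, Mmp9 and Col2a1. The part of a changed mix of cells in these results was not tested. Cartilage and bone markers, another source of fibrillar collagen, summed to 150.0 to 200.4 in the infarct at 1 week and 146 to 207 in sham over 4 genes. These sums lie near the floor, since the filter intensity for a single probe set was 108.2. Acan, 1 of the 4, did not pass the filter, and Sox9, Bglap and Spp1 of this list were not on the array.

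The 6 other genes whose profile over the 18 group means was most like the mean profile of the 8 genes were Col8a1 (Pearson r = 0.988), Col6a3 (0.983), Dap (0.977), Sparc (0.973), Prc1 (0.971) and Npc2 (0.970). The group means come from the same arrays and the members' profile peaks at 1 week, so these values are a description of these arrays. Their log2 changes in the infarct at 1 week ran from 2.08 for Dap to 4.37 for Col8a1. Among the members, each by its probe set with the highest mean, Col5a1 was closest to the shared profile (0.984), and Lox (0.883), Serpinh1 (0.853) and Loxl1 (0.788) were the least close. Each of these genes is part of the shared profile, which raises its own correlation. By single probe sets, Col3a1 102990_at was closest (0.989), Lox 161177_f_at was at 0.253 and Col1a2 161156_r_at ran against the profile (-0.691).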

How the data were processed

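Expression in mouse heart tissue was profiled with 59 arrays of 12488 Affymetrix probe sets. The values are the intensity of each probe set on a linear scale as deposited by the authors, in the series' value table. Their 2nd to 98th percentile trimmed mean was 499.2 to 499.9 on every array; the scaling tool is not given in the sources used here. Probe sets were named from the platform annotation: 10833 had 1 gene, 396 several, 1193 none and 66 were controls. Only those with 1 gene and an intensity of at least 108.2 (the 40th percentile) on at least 3 arrays were tested, 8140 in all.

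From the deposited intensity, log2(intensity + 45.6) was computed, the offset being 0.25 times the median. Groups came from the sample labels. One limma model (version 3.58.1, R 4.3.3) of 23 groups was fitted to all arrays, with the title number as a random block (consensus correlation 0.137), 36 residual degrees of freedom and Benjamini-Hochberg adjustment over 8140 probe sets at 0.05. Differences between times were tested as contrasts and F tests, and pairs of probe sets of 1 gene as differences between their values. Infarct and remote arrays of a time share title numbers. The deviations of such pairs from their group means correlated at 0.205, 0.239 and 0.412 at 1 week. At each of the other times at least 1 pair was at 0.1 or below. With at most 3 pairs at a time, these correlations cannot show whether arrays of the same number come from the same animal. The model was run on simulated data with normal noise and changes planted in far fewer probe sets than were called here at 1 week. That run was a check of the code and does not test any result above. No count of reads stands behind an array value, so the number of arrays limits the precision. Figures were drawn with matplotlib 3.10.9 in Python 3.11.15.

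Every member probe set is named. Of each pathway list, up to 4 genes with the smallest adjusted p in the infarct at 1 week and up to 2 at 24 h are named, and the 6 genes most like the members. The members and lists were chosen with earlier results of these data known. The alternatives were the offset, quantile scaling, no filter, 1 probe set per gene, the block, the arrays and controls in the fit, and leaving out each array.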

Additional observations from a re-analysis of the deposited data

Results flagged for a closer look

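The size of the infarct effect differed between the 6 times by limma's F test over the contrasts of infarct minus sham upper for 12 of the 14 probe sets. The Benjamini-Hochberg adjusted p was 1.22e-06 for Col1a1 94305_at and 3.143e-05 for 103709_at. It was 2.345e-09 for Col1a2 101130_at and 0.0001984 for 161156_r_at, whose effect went from above 0 at 24 h to below 0 at later times. For Col3a1 it was 3.217e-08 with 98331_at, 6.076e-09 with 102990_at and 1.03e-10 with 161984_f_at. The type V chains gave 3.703e-10 with Col5a1 93472_at, 7.131e-11 with Col5a1 101080_at and 3.446e-08 with Col5a2. The crosslinking enzymes gave 1.368e-10 with Lox 160095_at and 2.879e-08 with Loxl1.

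The remote effect differed between times for 11 of 14. The adjusted p was 3.998e-05 for Col1a1 94305_at and 0.003089 for 103709_at, and 1.377e-06 for Col1a2 101130_at. Col3a1 gave 6.249e-06 with 98331_at, 2.111e-05 with 102990_at and 4.083e-07 with 161984_f_at. Type V collagen gave 2.095e-06 with Col5a1 93472_at, 7.13e-07 with Col5a1 101080_at and 3.032e-05 with Col5a2. Lox 160095_at gave 2.474e-06 and Loxl1 0.004163. Infarct and remote effects share the sham upper arrays, so these are not independent of each other. No group held more than 3 arrays, so single arrays far from their group were not tested for.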

How the results depend on the processing

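No change of a member that was called in the reported fit or in the alternative reversed under any alternative tried. Of the log2 changes recomputed under the alternatives other than leaving out an array, 1930 were called in the same direction in both fits or called in neither. Direction was not compared where neither fit made a call. A further 59 lost a call and 31 gained one. Counts of members called moved in these cases, and the cause was not tested except where fewer probe sets or arrays were used. With an offset of 0.05 times the median, the step from 24 h to 48 h in the infarct gave 1 in place of 2, as it did under quantile scaling and without a filter. With an offset of 1 times the median it gave 4, and infarct against remote at 8 weeks gave 6 in place of 2. Without a filter, infarct against sham at 4 h gave 1 in place of 2. With 1 probe set per gene, so 8 member probe sets, the infarct counts were 1 at 4 h, 2 at 24 h, 7 at 48 h, 8 at 1 week and 5 at 8 weeks, remote at 48 h 1, and infarct against remote 3 at 48 h and 3 at 1 week. With only the arrays of both groups compared, infarct counts were 6 at 4 h, 2 at 24 h and 0 at 8 weeks, remote at 48 h 1, and infarct against remote 1 at 24 h and 0 at 8 weeks. Against the lone sham lower array, infarct counts were 0 at 4 h, 1 at 24 h and 5 at 48 h, and remote counts 0 at 24 h and 0 at 48 h.

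Leaving out each array in turn, with the lone or remaining arrays assumed to vary like the other groups, gave for infarct against sham 0 to 0 members at 1 h, 0 to 2 at 4 h, 2 to 4 at 24 h, 7 to 11 at 48 h, 13 to 14 at 1 week and 7 to 12 at 8 weeks. Remote against sham gave 0 to 0 at 1 h, 4 h and 8 weeks, 0 to 1 at 24 h, 1 to 3 at 48 h and 11 to 12 at 1 week. Infarct against remote gave 0 to 0 at 1 h and 4 h, 1 to 3 at 24 h, 3 to 10 at 48 h, 5 to 8 at 1 week and 0 to 10 at 8 weeks. The infarct steps gave 1 to 2 from 4 h to 24 h, 0 to 6 from 24 h to 48 h, 10 to 12 from 48 h to 1 week and 7 to 11 from 1 week to 8 weeks. The remote steps gave 10 to 11 each, and sham over time 2 to 3.

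Over 17 infarct and remote pairs of 1 number the correlation of deviations had a median of 0.071, and except at 1 week, where the block is given beside the result, the numbers were not shown to pair the arrays. Without a replicate block, infarct against remote at 8 weeks gave 1 in place of 2, and with the number as a fixed replicate block 6; at 1 week the fixed block gave 10 in place of 7. Intensities of Lox and of Col3a1 102990_at in sham tissue lie near background, which limits the precision of their fold changes.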
